A study of Homo sapiens with 6 samples.

Results

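Tubulin genes encode the subunits of microtubules. Of the 10 human alpha, beta and gamma tubulin genes considered here, 9 had a single row in the deposited matrix, out of 13021 gene identifiers with 1 row: TUBA1A, TUBA1B, TUBA1C, TUBA4A, TUBB, TUBB2A, TUBB4B, TUBB6 and TUBG1. TUBB3 was not analysed here. The genes were chosen by name, with their levels and their knockdown over control ratios known, so those values are given as a description with no test. The series holds 6 libraries. HCT116, HT29 and SW480, which are human lines established from colorectal tumours, each gave 1 library of cells with a lentiviral non-targeting short hairpin RNA (control) and 1 of cells with a short hairpin RNA against BZW2 (knockdown), to identify genes and pathways altered when BZW2, a relative of a translation initiation factor, is depleted. Both groups carried a stably integrated lentivirus and were kept by puromycin selection (1 µg/ml). All knockdown libraries carry the same hairpin name (SH2), and no other hairpin was analysed here. The HCT116 libraries are titled HCT116WT. The sources used here do not say what WT refers to there, or whether the selected cells were pools or single clones. With 1 library per line and treatment, the spread between cultures of a line was not measured.

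Alpha and beta tubulin form a dimer that polymerises into microtubules, the tracks of transport and the fibres of the mitotic spindle, and gamma tubulin sits in a ring complex that starts new microtubules. Cells carry several genes for each, called isotypes, whose proteins differ mostly in the tail at the carboxyl end. Tubulin mRNA is also controlled by its own product: when free tubulin is in excess, the factor TTC5 binds the first amino acids of a new alpha or beta chain as it leaves the ribosome, and the mRNA being translated is degraded.

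Facts of the whole series that bear on these genes are as follows. The libraries held 2187373 to 9317444 reads over listed genes, with the lowest depth in HCT116 knockdown cells. BZW2 itself was left at 8.69 to 17.6% of the control level, with HT29 the lowest and HCT116 the highest. Of 10 epithelial markers, 6 were listed in each line (EPCAM, CDH1, KRT8, KRT18, KRT19 and CDX2), with summed levels of 3783 to 14587 CPM (reads scaled to library size). Of 12 markers of leukocytes, fibroblasts, endothelium and neurons, 2 or 3 were listed in a line, with summed levels of 3.12 to 58.9 CPM, most of it MAP2 in the control libraries. In the HCT116 pair the log2 ratio of all genes followed the GC content of the transcript (Spearman 0.68 across 11360 genes, which are not independent replicates), against 0.34 in HT29 and −0.06 in SW480.

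The start of the coding sequence is shown because it encodes the first amino acids of the new chain, the stretch that tubulin autoregulation reads. The lines below give the first 30 coding bases of the principal GENCODE 29 transcript (GRCh38) of each gene, 5′ to 3′, with the first 12 in capitals.
TUBA1A: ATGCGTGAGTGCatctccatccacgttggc
TUBA1B: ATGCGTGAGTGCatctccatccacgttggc
TUBA1C: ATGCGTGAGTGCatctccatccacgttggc
TUBA4A: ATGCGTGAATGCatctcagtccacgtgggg
TUBB: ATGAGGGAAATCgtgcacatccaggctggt
TUBB2A: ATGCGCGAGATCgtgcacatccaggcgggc
TUBB4B: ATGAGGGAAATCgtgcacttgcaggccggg
TUBB6: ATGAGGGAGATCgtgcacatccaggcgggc
TUBG1: ATGCCGAGGGAAatcatcaccctacagttg
TUBA1A, TUBA1B and TUBA1C were identical over all 30 bases. Over the whole coding sequence TUBA1B was 97.2% identical to TUBA1A (1315 of 1353 aligned bases) and 97.2% to TUBA1C, but 86.2% to TUBA4A. The 4 beta genes were 81.3 to 87.3% identical to each other, and TUBG1 was 54.7 to 58.6% identical to the others. The coding sequence of TUBG1 lies in 11 exons, and that of each of the 8 alpha and beta genes in 4.

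Such copies decide how surely a read can be given to a gene. Of all distinct 75-base stretches in the annotated transcripts of a gene, the share that also occurs in a transcript of another gene or pseudogene was 53.2% for TUBB2A, of which 864 of 918 stretches lay in TUBB2B. It was 18.6% for TUBA1B, 14.1% for TUBA1A, 12.3% for TUBG1, 10.3% for TUBA1C, 6.40% for TUBB and 3.98% for TUBB4B. For TUBA4A it was 1.48%, and for TUBB6 it was 0 of 4688 stretches. The shared stretches lay mostly in the coding part: within it they made up 72.8% in TUBB2A, 58.6% in TUBA1B, 39.0% in TUBA1C and 38.6% in TUBA1A, against at most 0.437% of the stretches outside it in any of the 9 genes. TUBG1 shared its stretches with TUBG2, and TUBB with the pseudogenes TUBBP1 and TUBBP2. The sources used here name neither the read length nor the read counter and its treatment of reads with several matches, so the split of reads is least certain for TUBB2A and the TUBA1 genes.

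In all 3 lines the levels of the main tubulin genes were higher in the knockdown than in the control library. In HCT116 8 of the 9 genes were at least 2-fold higher, beside 26.8% of all genes with enough reads in that direction. In HT29 5 of 9 were at least 2-fold higher, beside 3.74% of all genes, and in SW480 4 of 9, beside 4.98%. At least 2-fold lower were 0 of 9 in each line, beside 28.8%, 6.17% and 7.36% of all genes. TUBA1B, TUBB and TUBB4B were at least 2-fold higher in all 3 lines, 3 of 9 beside 1.13% of all genes, and 7 of 9 were above control in every line, beside 22.3%. After subtracting the median ratio of genes of like GC content, 6, 3 and 4 of 9 were at least 2-fold higher in HCT116, HT29 and SW480, beside 16.7%, 3.55% and 5.09% of all genes. With that or a like correction for length, TUBA1B was the 1 gene at least 2-fold higher in all 3 lines, with TUBB and TUBB4B under the mark in HT29. Over the 9 genes HCT116 had a median log2 ratio of 2.41, HT29 of 1.01 and SW480 of 0.82, while all genes together had −0.02, 0.02 and 0.01. Since the genes were chosen with these ratios known, nothing is read from these shares. In bulk RNA, more cells of a kind and more RNA per cell cannot be told apart.

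**Figure D1:**
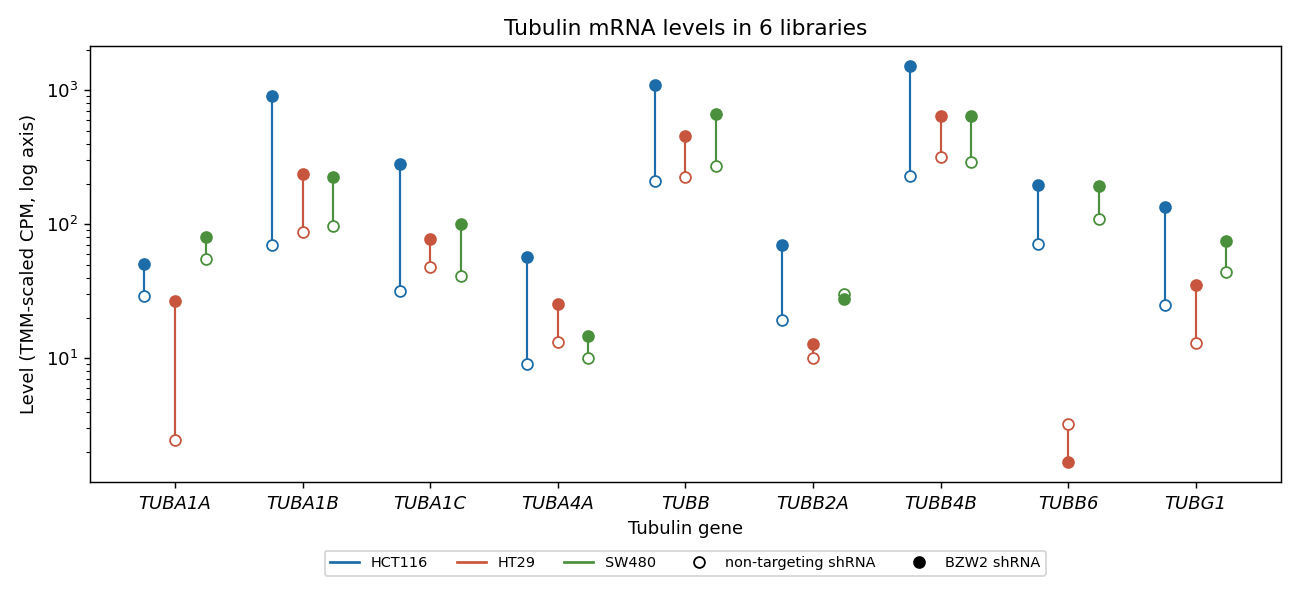
Level of each tubulin gene in every library, as CPM from recovered reads on a log axis, with open points for non-targeting and filled points for BZW2 hairpin cells, joined by line. TUBB4B and TUBB are highest by CPM in each library, TUBA1A in HT29 climbs from 2.47 to 27.0, and TUBB6 in HT29 is the lowest filled point at 1.67.

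Among the alpha genes, TUBA1B, a widely expressed isotype of dividing cells, showed the largest ratio in HCT116. The gene (ENSG00000123416) lies on the minus strand of chromosome 12 at 49127782 to 49131397 (GRCh38) and overlaps an antisense gene, AC011603.2. Its level was 69.8 CPM in the control and 912 in the knockdown library of HCT116, 87.7 and 239 in HT29, and 97.5 and 224 in SW480. The 3 control libraries were close together and every knockdown library lay above all of them. For this and like statements on the genes below, the share of all genes is not given, and nothing is read from them. Scaling factors of CPM were set within each pair, so levels of different lines share no common normalisation. The knockdown library was 13.1-fold higher in HCT116 (95% counting interval 11.8 to 14.5), 2.72-fold in HT29 (2.51 to 2.96) and 2.30-fold in SW480 (2.07 to 2.56). The limma estimate over the 3 lines was 2.15 ± 0.51 on the log2 scale (moderated SE, n = 3 lines), and 1.35 without HCT116. Here and below, a limma SE rests on a variance drawn toward that of all genes. The SD of the 3 line values of TUBA1B was 1.39.

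TUBA1C (ENSG00000167553), a close copy of TUBA1B that is also broadly expressed, lies on the plus strand of chromosome 12 at 49188736 to 49274603 and is annotated as overlapping the opposite-strand end of TUBA1A. It stood at 31.7 CPM in control and 284 in knockdown cells of HCT116, at 48.3 and 78.1 in HT29, and at 41.1 and 101 in SW480. The control and knockdown ranges did not overlap here either. The ratio was 8.95 in HCT116 (7.60 to 10.6), 1.62 in HT29 (1.43 to 1.83) and 2.46 in SW480 (2.10 to 2.90), so HT29 lay below the 2-fold mark.

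TUBA1A (ENSG00000167552; chromosome 12, minus strand, 49184796 to 49189324), an isotype best known from developing neurons, followed another order. Its control level was 2.47 CPM in HT29 (23 reads), 29.3 in HCT116 and 55.2 in SW480, and its knockdown level 27.0 in HT29 (242 reads), 50.6 in HCT116 and 80.0 in SW480. The 2 groups overlapped, since the HT29 knockdown library lay below the HCT116 and SW480 controls. In HT29 the ratio was 10.9-fold (7.11 to 17.6), above 99.99% of all genes with enough reads in that pair. The ratio was 1.72 in HCT116 (1.34 to 2.21) and 1.45 in SW480 (1.25 to 1.69). Without GC correction TUBA1A had the lowest ratio of the 9 genes in HCT116 and the highest in HT29. It was then the 1 gene whose largest ratio was not in HCT116. After GC correction TUBB6 had the lowest log2 ratio in HCT116 (0.15, beside 0.24 for TUBA1A). The largest values of TUBB6 (0.89 in SW480) and TUBG1 (1.25 in HT29, 1.14 in HCT116) then also lay outside HCT116. The closest copies of TUBA1A did not share its HT29 value, with TUBA1B at 2.72-fold and TUBA1C at 1.62-fold.

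TUBA4A (ENSG00000127824; chromosome 2, minus strand, 219249711 to 219278170), the alpha gene whose coding sequence differs most from the TUBA1 genes, was the lowest alpha gene per kilobase in 5 of 6 libraries, the HT29 control, where TUBA1A was lower, being the exception. It stood at 9.04 and 57.2 CPM in HCT116, 13.3 and 25.3 in HT29, and 10.03 and 14.8 in SW480. The ratios were 6.33 (4.56 to 8.87), 1.90 (1.52 to 2.39) and 1.47 (1.03 to 2.12), the last from 50 and 92 reads. No knockdown library lay below a control library. TUBA4A overlaps STK16 and TUBA4B, both on the other strand, and the sources used here do not say whether the libraries kept strand.

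Among the beta genes, TUBB and TUBB4B, the 2 broadly expressed isotypes, had similar ratios within HT29 and within SW480. TUBB (ENSG00000196230; chromosome 6, plus strand, 30720201 to 30725426) stood at 211 and 1096 CPM in HCT116, 225 and 453 in HT29, and 274 and 669 in SW480. TUBB4B (ENSG00000188229; chromosome 9, plus strand, 137241213 to 137243707) stood at 229 and 1524 CPM in HCT116, 316 and 646 in HT29, and 291 and 648 in SW480. For both genes all knockdown libraries lay above all control libraries. TUBB was 5.21-fold higher in HCT116 (4.86 to 5.58), 2.01-fold in HT29 (1.91 to 2.12) and 2.44-fold in SW480 (2.29 to 2.59). TUBB4B was 6.64-fold higher in HCT116 (6.24 to 7.08), 2.05-fold in HT29 (1.96 to 2.14) and 2.23-fold in SW480 (2.10 to 2.37). In HCT116 the counting intervals of the 2 genes were apart, and in HT29 and SW480 they overlapped. Both HT29 values sat at the 2-fold mark, and with the median of genes of like GC content subtracted their log2 ratios there were 0.88 and 0.76.

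TUBB2A (ENSG00000137267; chromosome 6, minus strand, 3153669 to 3157526), an isotype abundant in neurons, had counting intervals apart from 1 in HCT116 alone. Its level was 19.2 and 70.0 CPM in HCT116, 9.98 and 12.8 in HT29, and 30.1 and 27.8 in SW480. The counting interval of the ratio lay above 1 in HCT116 (3.65, 2.83 to 4.70; a log2 ratio of 1.84, and 0.61 after GC correction) and included 1 in HT29 (1.28, 0.968 to 1.71) and SW480 (0.924, 0.738 to 1.16). Its near-identical copy TUBB2B was not listed in HCT116, and its log2 ratio was 0.15 in HT29 and −2.43 in SW480, the latter from 68 and 14 reads.

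TUBB6 (ENSG00000176014; chromosome 18, plus strand, 12307669 to 12344320), the class V beta tubulin gene, was low in HT29. It stood at 71.5 and 196 CPM in HCT116 and 110 and 194 in SW480, but at 3.22 and 1.67 in HT29 (30 and 15 reads). The HT29 level was thus far under both other lines with either hairpin: the SW480 control was 34.1 times the HT29 control (23.6 to 51.1) and the HCT116 control 22.2 times (15.3 to 33.3). These ratios between lines use CPM scaled within each pair, and their intervals leave that limit out. Knockdown was 2.74-fold higher in HCT116 (2.38 to 3.14), 1.77-fold higher in SW480 (1.60 to 1.96) and 0.519-fold in HT29, where the counting interval of 0.260 to 0.996 just missed 1. After GC correction the HCT116 log2 ratio went from 1.45 to 0.15. The estimate across lines was 0.49 ± 0.51 on the log2 scale, and it was −0.0124 without HCT116.

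The gamma tubulin gene TUBG1 (ENSG00000131462; chromosome 17, plus strand, 42609676 to 42615234), which encodes the nucleating subunit, was higher in each line. It stood at 24.9 and 134 CPM in HCT116, 13.0 and 35.4 in HT29, and 43.8 and 75.7 in SW480. The HT29 knockdown library lay below the SW480 control, so knockdown was above control within each line but the 2 groups overlapped. The ratios were 5.40 (4.41 to 6.62), 2.73 (2.21 to 3.39) and 1.73 (1.47 to 2.04). Its copy TUBG2 did not share this: its log2 ratios were −0.55, −0.09 and −0.74 in HCT116, HT29 and SW480. They come from 58 and 12, 30 and 27, and 48 and 35 reads. The counting interval of the TUBG2 ratio included 1 in HCT116 (0.326 to 1.25) and HT29 (0.535 to 1.63).

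Over the 3 lines, the limma estimates of the other tubulin genes on the log2 scale were 1.75 ± 0.50 for TUBA1C, 1.67 ± 0.43 for TUBB4B, 1.60 ± 0.58 for TUBA1A, 1.59 ± 0.40 for TUBB, 1.58 ± 0.44 for TUBG1, 1.40 ± 0.52 for TUBA4A and 0.73 ± 0.49 for TUBB2A (SE, n = 3 lines). Without HCT116 these estimates were 1.02, 1.12, 1.99, 1.18, 1.14, 0.76 and 0.15, where TUBA1A alone was larger. Without HT29, in contrast, TUBA1A was at 0.70, so its estimate rests largely on that line. Among the 9 tubulin genes the SD of the 3 line values ran from 0.74 (TUBB) to 1.58 (TUBA1A).

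**Figure D2:**
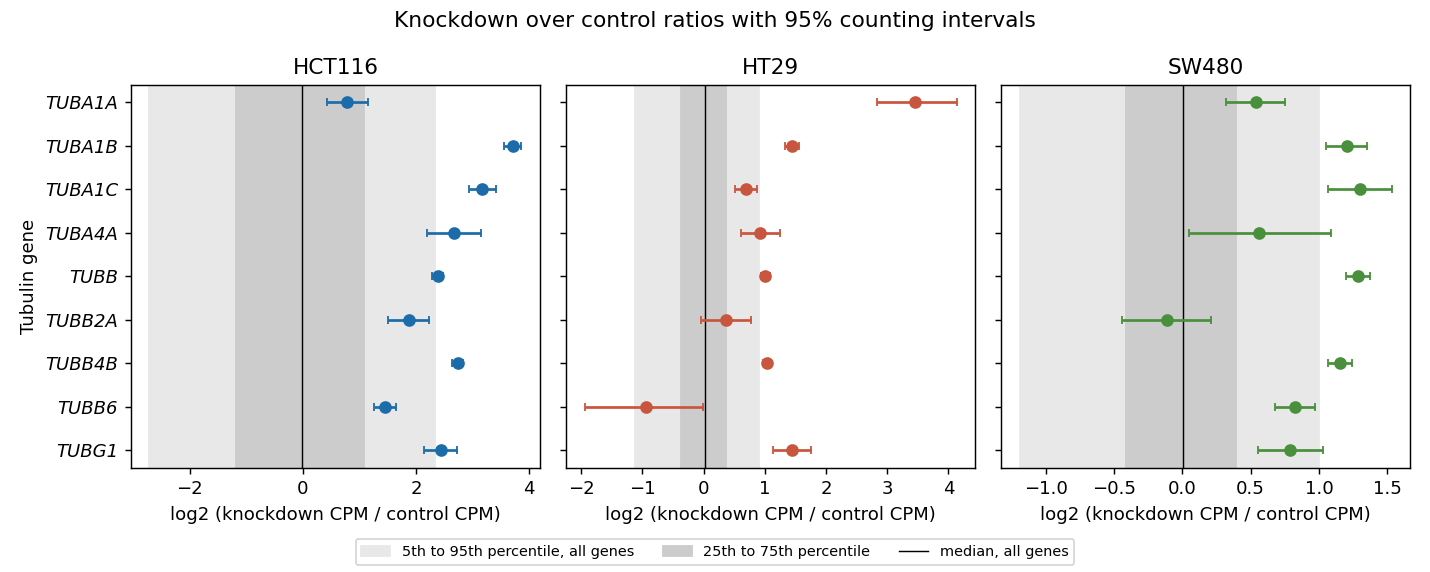
Log2 ratio of knockdown over control CPM for each tubulin gene (points) with 95% counting intervals (bars), per line, computed with no prior count, over the spread of all genes with at least 5 CPM in the higher library (grey bands, black median). The axes of the 3 panels differ in range. The band is widest in HCT116, and TUBA1A in HT29 and TUBB6 in HT29 are the points farthest from the rest.

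Per kilobase of merged exons, TUBB4B had the highest level and TUBB the next in all 6 libraries, followed by TUBA1B. Control levels of TUBB4B were 109, 150 and 138 CPM per kb in HCT116, HT29 and SW480, those of TUBB 62.7, 67.1 and 81.6, and those of TUBA1B 19.5, 24.5 and 27.3. The lowest control level was that of TUBA4A in HCT116 (2.22) and SW480 (2.46) and that of TUBA1A in HT29 (0.722), with TUBB6 just above it (0.782). In SW480 control cells TUBA1B (27.3) and TUBB6 (26.7) were neighbours, as were TUBG1 (18.1) and TUBB2A (17.4), and in HT29 control cells TUBB2A (5.78) and TUBG1 (5.39). With 1 library each, whether such neighbours differ by more than the spread between cultures was not measured. The summed beta level was 5.38 times the summed alpha level per kb in the HCT116 control and 3.29 times in its knockdown library, 5.73 and 4.59 times in HT29, and 4.81 and 5.10 times in SW480. This gap depends on the gene length used, here that of merged exons. It was 3574 bases for TUBA1B and 2111 for TUBB4B, whose coding lengths are 1353 and 1335 bases. Alpha genes also hold more of the shared stretches described above. The part of length or of shared stretches in this gap was not tested.

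The reads of each family were also summed, and the share of each gene in its family was taken per kb. All alpha reads together were 9.32-fold higher in HCT116 (8.63 to 10.1), 2.43-fold in HT29 (2.29 to 2.59) and 2.06-fold in SW480 (1.92 to 2.22). All beta reads were 5.44-fold (5.21 to 5.68), 2.01-fold (1.94 to 2.08) and 2.18-fold (2.10 to 2.27) higher. In HCT116 the share of TUBA1B in the alpha signal per kb went from 52.5% (95% interval from the exact binomial interval of its reads, 49.2 to 55.9%) to 73.9% (72.2 to 75.5%), and that of TUBA1A from 23.1% (20.2 to 26.1%) to 4.28% (3.49 to 5.19%). In HT29 TUBA1A went the other way, from 1.85% (1.18 to 2.77%) to 8.06% (7.12 to 9.09%), while TUBA1C went from 26.8% (24.6 to 29.05%) to 17.3% (16.1 to 18.5%). In SW480 TUBA1A went from 29.5% (26.6 to 32.4%) to 21.0% (19.4 to 22.6%). Intervals cover counting error, and no repeat library shows the spread between cultures.

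TUBB kept nearly the same share of the beta signal in HT29, at 30.05% (28.9 to 31.2%) and 30.1% (29.2 to 30.9%). It was 31.4% in the control and 28.7% in the knockdown library of HCT116 and 31.0% and 35.0% in SW480. TUBB4B held 52.3 to 68.2% over the 6 libraries. TUBB2A had the smaller share under knockdown in each line, going from 5.56% to 3.57% in HCT116, from 2.59% to 1.65% in HT29 and from 6.61% to 2.83% in SW480. TUBB6 held 8.70% and 4.18% in HCT116 and 10.1% and 8.30% in SW480, but 0.350% and 0.0905% in HT29. The shares depend on the gene length used: by coding length TUBB held 43.5% and TUBB4B 42.1% in SW480 knockdown cells, the reverse of the order by merged exons (35.0% and 53.9%).

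**Figure D3:**
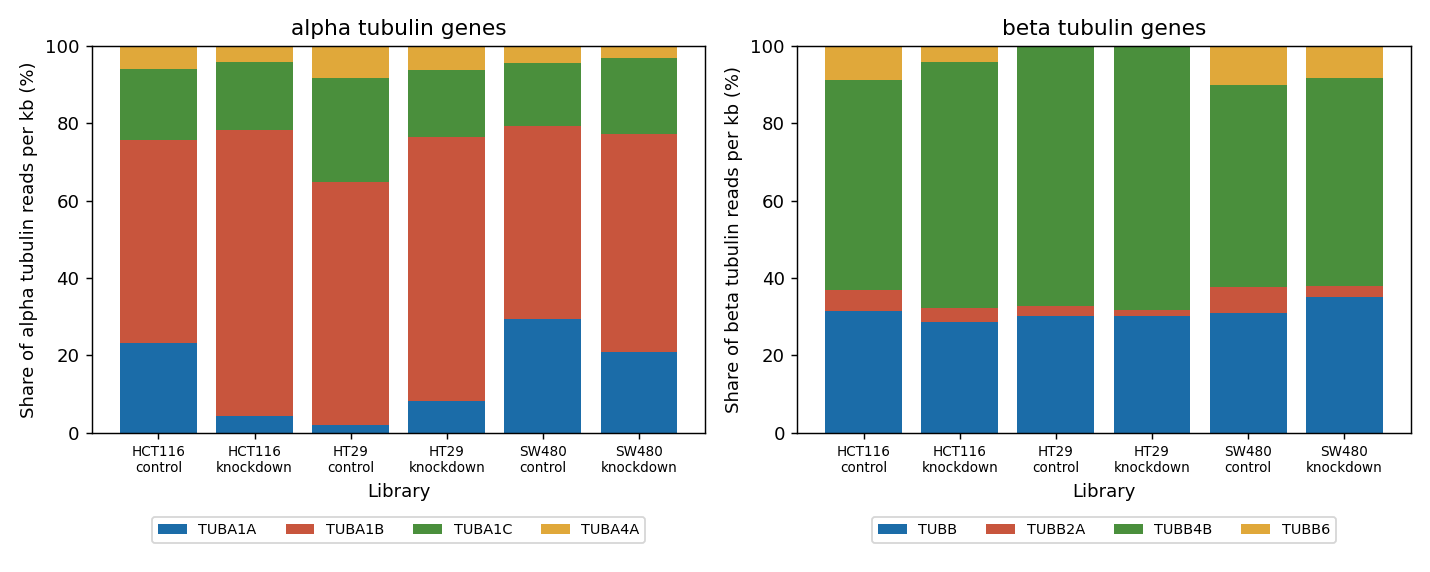
Share of each gene in the reads per kb of merged exons of the alpha genes (left) and of the beta genes (right), in percent, for each library. TUBA1B is the largest alpha part throughout and reaches 73.9% in HCT116 knockdown cells, and TUBB6 is close to invisible in HT29.

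The tubulin transcripts are richer in GC than most, from 51.6% for TUBA1C to 61.2% for TUBB6, above 61.0 to 89.1% of genes listed in HCT116. The median log2 ratio of the 300 genes nearest in GC content was subtracted from each ratio. In HCT116 the median of the 9 tubulin genes then went from 2.41 to 1.35, and 6 of 9 instead of 8 of 9 stayed at or above a 2-fold difference. TUBA1B was left at 2.84, TUBA1C at 2.47, TUBB at 1.76, TUBB4B at 1.47, TUBA4A at 1.35 and TUBG1 at 1.14, while TUBB6 was left at 0.15, TUBA1A at 0.24 and TUBB2A at 0.61. In HT29 the count was 3 of 9 instead of 5 of 9, with a median of 0.76. In SW480, where ratio and GC content had a correlation of −0.06, it stayed 4 of 9, with a median of 0.89.

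**Figure D4:**
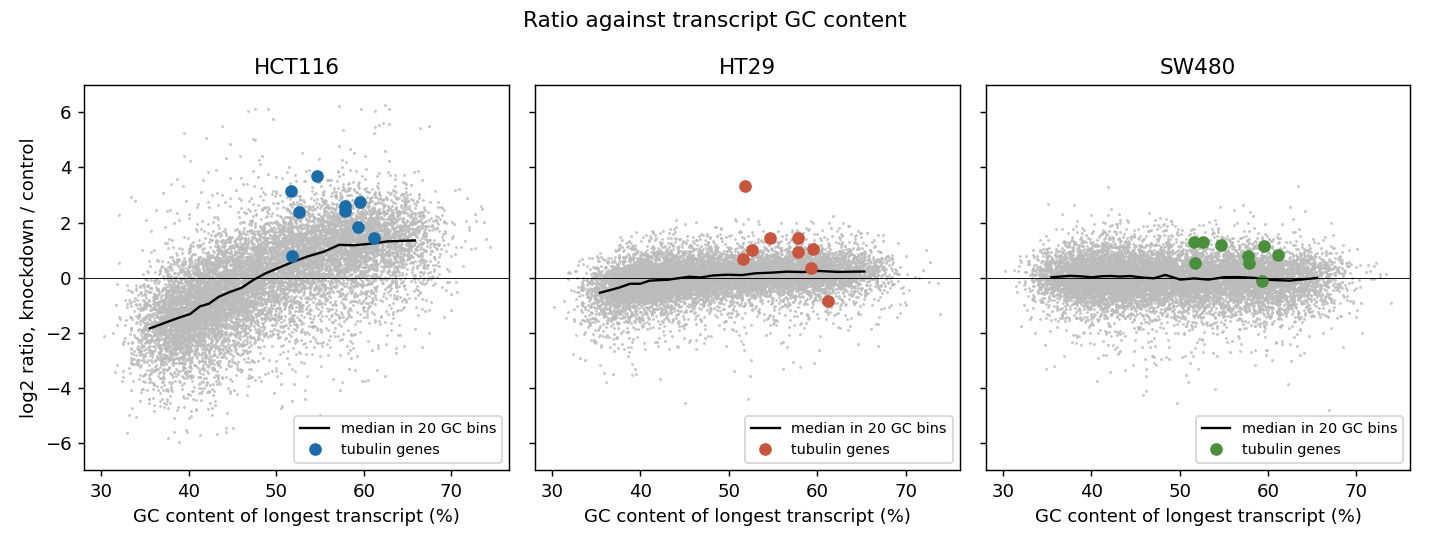
Log2 ratio of knockdown over control against the GC content of the longest transcript, for all genes with at least 5 CPM in the higher library (grey), their running median (black line) and the tubulin genes (coloured), per line. The grey cloud slopes upward in HCT116 and has a correlation of −0.06 in SW480, where 8 of the 9 tubulin points are above 0.

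Genes that act on tubulin were examined to see whether they moved with it, from 6 lists of partner genes: other tubulins, the gamma-tubulin ring and augmin complexes, tubulin folding, tubulin mRNA autoregulation, tubulin modification, and microtubule dynamics. Of 124 named genes, 100 were listed in all 3 lines and tested with limma across lines. None passed: 0 were higher and 0 lower at adjusted p under 0.05, beside 0.0% of all 10875 genes in either direction. At an unadjusted p under 0.05 there were 11 higher and 7 lower of the 100, beside 6.59% and 7.04% of all genes. edgeR on recovered reads also called 0 of them, while DESeq2 called MAP2 and AKAP9 lower and TACC3 higher, 2 and 1 of 100 beside 1.23% and 1.01% of all genes. Without HCT116 limma called 5 higher (STMN3, PRC1, TACC3, TPX2 and TPGS2) and 1 lower (MAP2), beside 1.72% and 1.39% of all genes. Without SW480 it called AKAP9 and MAP2 lower, beside 0.855%. These are counts of 0 to 5 genes, and nothing particular to the lists is read from them. The genes named for these alternative calls were chosen after their values were seen.

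The folding genes mostly had log2 fold changes above 0, and none passed the test. These encode the chaperonin CCT, its delivery factor prefoldin and the cofactors that assemble the dimer. Of 21 tested, 16 had a positive log2 fold change, beside 51.1% of all genes, and 13 were above control in all 3 lines, beside 22.3%, with a median of 0.56 where all genes had 0.02. Of those with 1 sign in all lines the largest were TBCD, a cofactor that holds beta tubulin, at 1.28 ± 0.43 (SE, n = 3 lines), and the CCT subunits CCT7 at 1.09 ± 0.42 and TCP1 at 1.00 ± 0.37. In limma the adjusted p values of these 3 were 0.315, 0.340 and 0.335. The 5 genes with a negative value were the prefoldin genes PFDN2 (−0.86 ± 0.42), PFDN4 (−0.55 ± 0.55), PFDN1 (−0.28 ± 0.47) and VBP1 (−0.08 ± 0.43) and the cofactor gene TBCA (−0.58 ± 0.53), named after their values were seen. All 5 were at least 2-fold lower in HCT116, as were 28.8% of all genes. In HT29 and SW480, in contrast, TBCA (1.19- and 1.16-fold), VBP1 (1.23 and 1.48) and PFDN4 (1.12 and 1.35) were above control. PFDN2 (0.865 and 0.514) was below control in both, with a counting interval in HT29 that included 1 (0.747 to 1.002). PFDN1 (0.966 and 1.17) had counting intervals that included 1 in both lines. By line the folding list had a median log2 ratio of 0.70 (HCT116), 0.41 (HT29) and 0.43 (SW480), beside tubulin medians of 2.41, 1.01 and 0.82. The difference between these lists was not tested. These medians are without GC correction, after which the tubulin median in HCT116 was 1.35. No GC-corrected values are given for the partner lists or the proliferation markers.

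In the gamma-tubulin list, which holds the ring subunits and augmin, none passed the test. TUBGCP2 and TUBGCP3, which pair with gamma tubulin to form the small complex, had log2 ratios of 1.36 and 1.47 in HCT116, 0.49 and 0.08 in HT29, and −0.03 and 0.18 in SW480. Their log2 fold changes were 0.64 ± 0.41 and 0.61 ± 0.42 (limma adjusted p = 0.448 and 0.477). Of 17 tested, 12 had a positive value, beside 51.1% of all genes, with a median of 0.44 where all genes had 0.02. With 1 sign in all lines the largest were AKAP9, a scaffold of the Golgi and centrosome, at −1.97 ± 0.52, the augmin subunit HAUS8 at 0.96 ± 0.45 and the pericentriolar scaffold PCNT at 0.81 ± 0.40 (limma adjusted p = 0.268, 0.377 and 0.387).

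TTC5, the factor that reads new tubulin chains, was 1.92-fold higher in HCT116, 1.24-fold in HT29 and 1.001-fold in SW480, and its limma estimate was 0.45 ± 0.40 (limma adjusted p = 0.579). The 12 autoregulation genes also hold SCAPER and the CCR4-NOT deadenylase that degrades the mRNA. Of these 12, 6 had a positive and 6 a negative value, with a median of 0.00. Among all genes 51.1% were positive, with a median of 0.02. SCAPER, which links TTC5 to that deadenylase, was at −1.68 ± 0.65 (limma adjusted p = 0.344). Its line values were −3.77 (HCT116, from 170 control and 3 knockdown reads), −0.68 (HT29) and −0.55 (SW480). The deadenylase subunits CNOT9 and CNOT2 were at 0.65 ± 0.35 and −0.50 ± 0.36 (limma adjusted p = 0.409 and 0.501).

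The modification and dynamics lists held values of both signs. Of 16 modification genes 9 had a positive value (median 0.17), beside 51.1% of all genes (median 0.02). The polyglutamylase gene TTLL7 was at −1.57 ± 0.67, the deglutamylase gene AGTPBP1 at −1.47 ± 0.55 and TPGS1, a subunit of a polyglutamylase, at 1.15 ± 0.55 (limma adjusted p = 0.359, 0.339 and 0.383). In HCT116 TTLL7 had 486 control and 10 knockdown reads. Of 31 dynamics genes 17 were positive (median 0.07), beside the same 51.1% of all genes. MAP2, a microtubule stabiliser best known from neurons, was at −2.72 ± 0.57, the spindle gene TACC3 at 1.78 ± 0.44 and the depolymerising kinesin gene KIF2C at 1.46 ± 0.41 (limma adjusted p = 0.250, 0.263 and 0.273). In HCT116 MAP2 had 336 control and 5 knockdown reads. STMN1, which sequesters tubulin dimers, was at 0.52 ± 0.42 (limma adjusted p = 0.539), its log2 ratio being −0.47 for HCT116 against 1.05 for HT29 and 0.87 for SW480. Of the other tubulins 3 were tested. TUBD1 (delta) was at 0.83 ± 0.45 and TUBE1 (epsilon), both of centrioles, at −1.54 ± 0.45, and TUBG2 at −0.44 ± 0.49 (limma adjusted p = 0.411, 0.283 and 0.660).

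**Figure D5:**
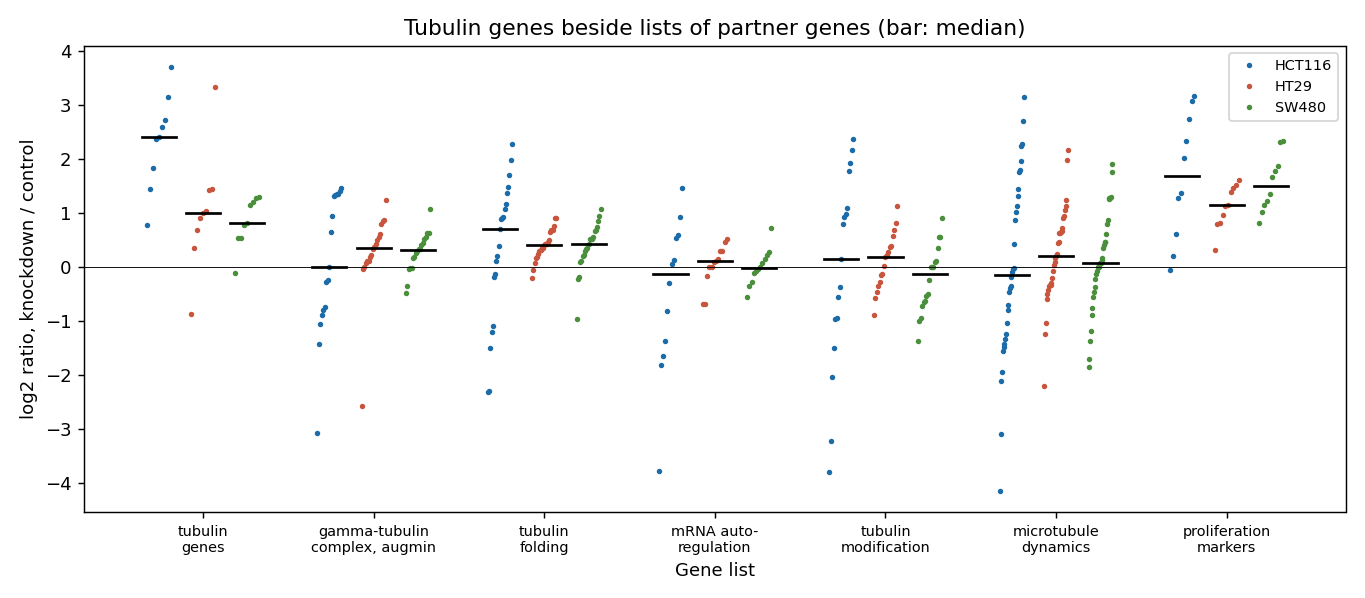
Log2 ratio of knockdown over control for the 9 tubulin genes and for each list of partner genes and proliferation markers, 1 point per gene and line, with the median as a bar (the 5 other tubulins are not drawn). The tubulin medians are 2.41, 1.01 and 0.82 in HCT116, HT29 and SW480, those of the proliferation markers 1.69, 1.14 and 1.503, and those of the 5 plotted partner lists lie between −0.14 and 0.70. All ratios are without GC correction.

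Markers of cell proliferation were also above control, though none passed the limma test. All 10 had a positive log2 fold change, beside 51.1% of all genes, and 9 were above control in every line, beside 22.3%. By line, HCT116 had a median log2 ratio of 1.69 over the list, HT29 of 1.14 and SW480 of 1.503. The mitotic genes CCNB1, CCNA2 and AURKA were at 2.32 ± 0.41, 2.11 ± 0.39 and 2.10 ± 0.38 (limma adjusted p = 0.250 for each). MKI67 and TOP2A, in contrast, had log2 ratios of 0.21 and −0.05 in HCT116. The part of these genes in the tubulin values was not tested.

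The genes whose 3 log2 ratios lay nearest to those of a tubulin gene were looked up among 4828 genes with at least 20 CPM in all libraries. For TUBA1B (3.70, 1.44 and 1.199 in HCT116, HT29 and SW480) these were MCM5 (3.86, 1.36 and 1.45) and MCM2 (3.17, 1.14 and 1.23), both of the replicative helicase. For TUBB (2.38, 1.01 and 1.29) they were DYNC2I2, a chain of the ciliary dynein (2.42, 1.11 and 1.18), and KPNA2, a nuclear import factor (2.54, 0.95 and 1.39). For TUBG1 (2.41, 1.43 and 0.79) they were LIG1, the replicative DNA ligase (2.23, 1.40 and 0.78), and LRRC45, a centrosomal linker gene (2.503, 1.56 and 0.62). The root mean square difference ran from 0.09 for DYNC2I2 to 0.35 for MCM2. TUBG1 itself was under 20 CPM in the HT29 control. Each likeness rests on 3 pairs of libraries and on ratios without GC correction.

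Start regions of 3 genes that were higher in all 3 lines are printed because they differ in make-up: RefSeq sequence (GRCh38.p14) upstream of the start, 5′ to 3′ on the gene's strand, none reaching the RefSeq start. Capitals mark CCAAT (or its complement ATTGG), the cell cycle element written TTTGAA or TTCGAA, and the E2F sequence TTTGGCGC, TTTCCCGC, TTTGCCGC or TTTCGCGC, each searched on both strands.
TUBB4B chr9:137241037-137241212: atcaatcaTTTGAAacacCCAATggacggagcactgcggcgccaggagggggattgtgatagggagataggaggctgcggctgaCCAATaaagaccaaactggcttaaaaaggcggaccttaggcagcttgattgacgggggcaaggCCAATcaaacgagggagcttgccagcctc
TUBG1 chr17:42609433-42609675: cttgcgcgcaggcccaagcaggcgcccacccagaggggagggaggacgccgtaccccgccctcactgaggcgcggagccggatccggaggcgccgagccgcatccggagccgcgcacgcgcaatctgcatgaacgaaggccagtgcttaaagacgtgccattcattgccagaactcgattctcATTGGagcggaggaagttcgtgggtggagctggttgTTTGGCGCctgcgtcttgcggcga
TUBA1B chr12:49131396-49131645: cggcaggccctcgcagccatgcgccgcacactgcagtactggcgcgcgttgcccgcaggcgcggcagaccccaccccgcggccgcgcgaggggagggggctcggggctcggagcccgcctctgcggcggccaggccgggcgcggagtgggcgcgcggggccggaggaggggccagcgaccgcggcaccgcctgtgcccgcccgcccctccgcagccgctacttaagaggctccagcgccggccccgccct
Over the full windows of 300 bases (250 before to 50 after the start), TUBB4B held 3 CCAAT matches and 1 cell cycle element, TUBG1 1 CCAAT and 1 E2F match, and TUBA1B 0 of either. TUBA1A held 2 CCAAT matches, and TUBA1C, TUBB and TUBB6 1 each. TUBA1C held 2 cell cycle elements. Of 35116 promoters of that length, 34.6% held a CCAAT match, 10.8% at least 2, 16.4% a cell cycle element and 3.31% an E2F match. TUBA1B and TUBB4B, which both had ratios above 2 in every line, thus share none of these letters in this window, and a match is a description, not a site. The printed TUBA1B stretch is 81.2% G and C, that of TUBG1 65.8% and that of TUBB4B 54.5%.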

How the data were processed

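Gene symbols came from a table of gene names, and coordinates, lengths, GC content and transcripts from GENCODE 29 (GRCh38). Per the submitters' processing notes, the tools were bcl2fastq 2.17, STAR 2.5.2b and DESeq, on GRCh38; annotation release, gene counter and strand setting: not given in the sources used here. The authors deposited a normalised signal, gene read counts divided by a size factor set within each line. Whole reads were recovered for 100% of values within 0.1 read. The matrix held 13040 identifiers, of which 19 repeated ones were left out, and 10875 were listed in all lines. Within a line, CPM used TMM factors of that pair (edgeR 4.0.16), log2 ratios a prior count of 2, and calls a 2-fold ratio with at least 5 CPM in the higher library. Intervals are exact Clopper-Pearson at 95% and cover counting error only. Across lines, limma 3.58.1 in R 4.3.3 was run on log2(value + 1) with line and treatment as terms, for values of at least 1 in at least 3 libraries, two-sided, with Benjamini-Hochberg adjustment; fold changes on this scale understate low genes. Lines are the replicates, the fit has 2 residual degrees of freedom, and pairing comes from the shared line. Own-pair correlations were 0.28, 0.75 and 0.45 in HCT116, HT29 and SW480. The highest with a control of another line were 0.23, −0.66 and 0.38, close to the own-pair values in HCT116 and SW480. Variances were moderated by empirical Bayes with 7.26 prior degrees of freedom, so each limma SE also draws on the other genes. GC correction subtracted the median of the 300 nearest genes. edgeR and DESeq2 1.42.0 were run on recovered reads. The limma step was run on simulated data in which a changed gene had the same fold change in every line. That run cannot show how the test does where lines differ. TUBB3 was not analysed here. Members and lists were chosen with earlier results of these data known. Of each partner list, the 3 genes of largest fold change with 1 sign in all lines are named, plus all tubulin genes, the 2 genes nearest in pattern to TUBA1B, TUBB and TUBG1, and TTC5, TUBGCP2, TUBGCP3, TUBD1, TUBE1, TUBG2 and STMN1.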

Additional observations from a re-analysis of the deposited data

Results flagged for a closer look

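TUBB6 is listed because 2 lines went opposite ways, each with a counting interval that leaves out 1. Its log2 ratio was −0.86 in HT29, from 30 and 15 reads, against 1.45 for HCT116 and 0.82 for SW480. STMN1 is listed for the same reason, with −0.47 for HCT116 against 1.05 for HT29 and 0.87 for SW480. TUBB6 and STMN1 are not a full list. Many genes of the partner lists also meet this rule, in most of the lists. Among them are TBCA, VBP1, PFDN4, PFDN5, TUBB4A, TUBGCP6, CNOT7 and HDAC6, named after their values were seen. The share of all genes that meet it is not given, and nothing is read from these examples. Log2 ratios in HCT116, HT29 and SW480 were −2.29, 0.24 and 0.21 for TBCA. They were −1.20, 0.30 and 0.56 for VBP1 and −2.32, 0.17 and 0.43 for PFDN4. The beta tubulin gene TUBB4A was at 0.93 in HCT116 and −0.81 in SW480. With 1 library per line and treatment, no such difference between lines was tested.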

How the results depend on the processing

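Across lines, limma called 0 higher and 0 lower genes (1483 at an unadjusted p under 0.05). The count was also 0 with a pseudocount of 0.5, with a filter of 50 in 3 libraries, with edgeR (1287 unadjusted), and with no replicate block, that is without the pairing by cell line (191 unadjusted). A pseudocount of 8 gave 1 lower gene. DESeq2 called 110 higher and 134 lower genes, and 1 higher and 2 lower partner genes. Leaving out 1 line gave 30 to 187 higher and 27 to 151 lower genes, the most without HCT116 and the fewest without HT29, and 0 to 5 higher and 0 to 2 lower partner genes. In HT29 the tubulin genes at least 2-fold higher numbered 3 instead of 5 after correction for GC content, and 3 after correction for length. The fold change of TUBB6 across lines ran from −0.0124 without HCT116 to 1.17 without HT29. The causes were not tested. The other 8 tubulin genes kept their sign in all 9 alternatives, and within lines the log2 ratios of the tubulin genes stayed inside their counting intervals with the authors' size factors (27 of 27). With library size alone 21 of 27 did, with GC correction 14 and with length correction 16. With 50- or 100-base stretches, the share found elsewhere was 58.7% or 48.9% for TUBB2A and 25.6% or 13.5% for TUBA1B. The depth of 15 to 30 reads limits TUBB6 in HT29.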
